A study of Rattus norvegicus with 30 samples.

Results

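Star strands are the partners that a chip's naming marks with an asterisk, the strand of a miRNA hairpin that was recorded as the scarcer of its pair. They were taken here as every rat name in the hepatectomy table that ends in a star, which gave 58 of the 388 names on that chip. Of these, 53 were also in the sham table, and 57 could be set beside a guide strand of the same name without the star, 51 of them by the exact name and 6 after a locus number was dropped. miR-125b* had no guide of that name on the chip. The samples were livers of male Wistar rats collected 0, 2, 6, 12, 24 and 48 h and 5 d after a partial hepatectomy that removes 70% of the liver, and livers collected 12, 24 and 48 h after sham surgery, a laparotomy that leaves the liver whole. All 10 groups held 3 arrays, named biological replicates by the submitters. Total RNA was hybridised to a 1-colour microfluidic chip on which a captured miRNA primes an enzymatic extension with biotin-labelled nucleotides.

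A miRNA hairpin is cut by Dicer into a short duplex, and one strand of it, the guide, is kept by an Argonaute protein while the other, the passenger or star strand, is usually degraded. Both strands are cut from the same hairpin, and a guide that is made at several loci adds up the hairpins of all of them. Some star strands are themselves loaded and repress targets of their own, which differ from those of the guide because the seed, the stretch near the 5′ end that pairs with targets, differs.

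The sequences behind the results below are those of the let-7 pairs and of 5 further hairpins. They are mature sequences from RefSeq on build GRCr8, 5′ to 3′, with the seed (bases 2 to 8) in capitals. The arm of a star name was assigned from miRNA nomenclature, since the probes' own sequences are not used here, and 44 of the 58 star strands were matched in this way. The let-7 set shows 4 guides with a single seed and star strands with 4 different ones.
let-7b*: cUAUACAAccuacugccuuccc
let-7b: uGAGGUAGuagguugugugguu
let-7d*: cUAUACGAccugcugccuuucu
let-7d: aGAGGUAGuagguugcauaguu
let-7e*: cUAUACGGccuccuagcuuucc
let-7e: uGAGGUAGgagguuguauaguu
let-7i*: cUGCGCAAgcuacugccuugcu
let-7i: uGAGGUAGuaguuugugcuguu
The next hairpins carry the star strands outside the let-7 family that passed a test at a single time and have an entry in RefSeq.
miR-204*: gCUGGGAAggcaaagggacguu
miR-204: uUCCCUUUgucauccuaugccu
miR-28*: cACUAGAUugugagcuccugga
miR-28: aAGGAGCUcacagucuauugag
miR-106b*: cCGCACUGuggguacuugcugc
miR-106b: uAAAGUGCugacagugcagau
miR-27a*: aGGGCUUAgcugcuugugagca
miR-27a: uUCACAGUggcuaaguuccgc
miR-99a*: cAAGCUCGuuucuaugggucug

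The let-7 star strands differed from each other at 4 to 11 of 22 positions, counted from the 5′ end, and the guides at 3 to 6. On GRCr8, let-7b* lies at chr7:118684098-118684119 on the plus strand, let-7d* at chr17:16322327-16322348 on the plus strand and let-7i* at chr7:60527879-60527900 on the minus strand. let-7e*, at chr1:67350288-67350309, lies within the span of Spaca6, as does miR-99b*. miR-204*, at chr1:229743532-229743553, lies within the span of the channel gene Trpm3, and miR-28*, at chr11:89480263-89480284, within that of Lpp. miR-106b*, at chr12:22157062-22157083, and miR-25* lie within the span of Mcm7, a subunit of the helicase that opens replication origins. miR-27a* lies at chr19:40859655-40859676 on the minus strand and miR-99a* at chr11:29687441-29687462 on the plus strand. Exon, intron and strand of these host genes were not in the annotation used.

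Over the 44 star strands with a sequence, 41 seeds were distinct, against 33 seeds over the 43 guides with a sequence. The shared star seeds were those of miR-99a* with miR-99b*, of miR-24-1* with miR-24-2* and of miR-30c-1* with miR-30c-2*. The first base was U in 7 of 44 star strands (15.9%), against 24 of 43 guides (55.8%). It was C in 18 of 44 star strands (40.9%), against 5 of 43 guides (11.6%). A 5′ U is the base that Argonaute proteins favour in a guide. Median GC content was 50% in star strands, from 27.3% to 72.7%, and 43.5% in guides.

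The arrays differed in brightness and in how much of the chip lay above background. A name counted as above background on an array where the lower quartile of its raw spots exceeded the constant that the authors subtracted there. Median raw intensity was 976 to 1328 on 13 hepatectomy arrays, 544 to 608 on the other 8 and 296 to 408 on the sham arrays. The classes fell unevenly over the times, with 1080, 1120 and 544 at 0 h, and 1240, 984 and 1024 at 24 h. Brightness and time are thus partly confounded. On 5 arrays, 4 of hepatectomy and 1 of sham, only 28 to 98 names were above background. The hepatocyte miRNAs miR-122, miR-192 and miR-194 and the endothelial miR-126 were above background on all 21 hepatectomy and all 9 sham arrays. Of the leukocyte set, miR-142-3p was above background on 0 arrays of either table, and miR-223, miR-142-5p and miR-150 on 12, 16 and 15 hepatectomy arrays and on 2, 2 and 6 sham arrays. Of the neural set, miR-9 was above background on 1 hepatectomy array and 0 sham arrays, miR-124 on 19 and 7, and miR-153 on 16 and 4. In a piece of liver, fewer cells of a type and less RNA per cell cannot be told apart.

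Star strands were near background on many arrays. The median star strand was above background on 12 of 21 hepatectomy arrays, against 15.5 for the 54 guides counted once and 13.5 for the 330 names without a star. The count was 18 or more arrays for 8 of 58 star strands (13.8%), against 19 of 54 guides (35.2%), and 5 or fewer for 10 star strands, against 11 guides. In the sham table the median star strand was above background on 1 of 9 arrays, and 23 of the 53 were so on none. The sham chip also held 189 star names that the hepatectomy chip lacks, again with a median of 1 of 9 arrays, and 8 of them were above background on all 9. The 438 names of the sham table without a star were dim too, with a median of 2 arrays. Of these, 157 were above background on none and 45 on all 9.

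miR-296*, which comes from the imprinted Gnas region in mouse, was the one star strand above background on all 21 hepatectomy arrays. Its background-subtracted median intensity there ran from 80 to 849, with a median of 336. miR-140*, from a hairpin known for its role in cartilage, was above background on 20 arrays, with a median intensity of 256 and a range of 32 to 528. let-7i*, miR-322* and miR-330* followed with 19 arrays each, then miR-196a*, miR-20a* and miR-24-2* with 18, and miR-21*, miR-34c* and miR-138* with 17. By the assigned arm, the 30 star strands of the 3p arm were above background on a median of 12.5 arrays and the 20 of the 5p arm on 10. At the other end of the list, miR-29c* and miR-26b* were above background on 1 array each, miR-23a* on 2, and let-7b* and miR-29a* on 3. miR-126*, the partner of the endothelial miR-126, was above background on 4 hepatectomy arrays, whereas its guide was so on all 21. Among the star strands most often above background, the guides of miR-296*, miR-140*, let-7i* and miR-322* were so on 10, 4, 7 and 18 arrays. Those of miR-330*, miR-196a*, miR-20a* and miR-24-2* were so on 5, 1, 17 and 21. The strand named the star was thus above background on more arrays than its guide in some hairpins and on fewer in others.

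The number of star strands above background on an array ran from 1, at 6 h, to 56, at 24 h. It was 34, 14 and 33 at 0 h, 17, 4 and 14 at 2 h, and 39, 1 and 42 at 6 h. It was 48, 50 and 40 at 12 h, 56, 42 and 39 at 24 h, 28, 8 and 40 at 48 h, and 53, 47 and 9 at 5 d. Thus every array at 12 and 24 h had more star strands above background than any array at 0 h, while the 3 arrays of 6 h, 48 h and 5 d spread widely. The count of all names above background moved the same way, with at least 266 of 388 names on each 24 h array, against at most 262 on each 0 h array. In sham livers the count was 14, 4 and 11 of 53 star strands at 12 h, 17, 21 and 20 at 24 h, and 9, 10 and 19 at 48 h.

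**Figure D1:**
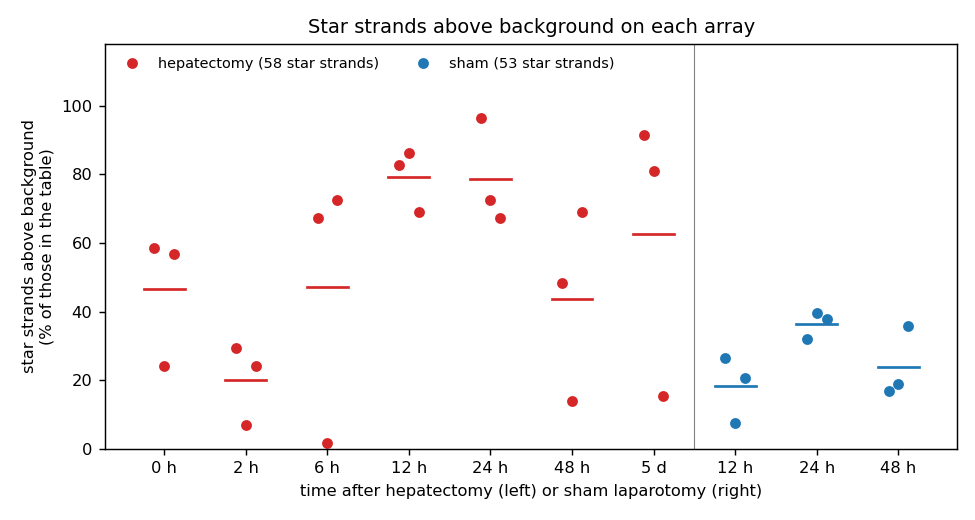
Share of star strands above background on each array, in percent of the star strands in its table, for the hepatectomy times (left, red, 58 star strands) and the sham times (right, blue, 53 star strands); points are arrays and lines are group means. The 12 and 24 h hepatectomy arrays, with 39 to 56 star strands, lie above the 0 h arrays, and 1 array at 6 h holds a single star strand above background.

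The time course asked which star strands differed from 0 h during regrowth. One did: miR-204*, whose guide is known from eye and brain and is read with it from the Trpm3 locus, was higher at 12 and 48 h. Levels here are normalized log2 intensities. On the 3 arrays of each time, miR-204* was at 7.64, 7.62 and 7.54 at 0 h, 7.87, 7.77 and 7.60 at 2 h, and 7.77, 7.94 and 7.75 at 6 h. It was at 8.04, 8.26 and 8.04 at 12 h, 8.19, 7.83 and 8.02 at 24 h, 8.20, 8.14 and 8.09 at 48 h, and 7.67, 8.04 and 7.92 at 5 d. All arrays at 6 h and later lay above all arrays at 0 h, and the 2 h arrays overlapped with them. The log2 difference from 0 h was 0.51 ± 0.13 (SE) at 12 h and 0.55 ± 0.13 at 48 h, folds of 1.43 and 1.46, with limma adjusted p of 0.0384 and 0.0233. At 24 h it was 0.41 ± 0.13 with a limma adjusted p of 0.0665.

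miR-204* was above background on all 3 arrays at 12 h and on 2 of 3 at both 48 h and 0 h. Its guide, miR-204, was above background on at most 2 arrays of any time, and its log2 differences from 0 h were -0.03 at 12 h and -0.03 at 48 h, neither past the threshold. The call was not firm. It was lost under median centring, with limma adjusted p of 0.0782 at 12 h and 0.0748 at 48 h. With 1 array left out at a time it passed in 1 of 6 cases at 12 h and 2 of 6 at 48 h. The largest adjusted p at 12 h was 0.280, without the second 12 h array, and at 48 h 0.0970, without the third 0 h array.

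Across the list of 58, limma passed miR-204* alone, at 12 and 48 h, and 0 star strands at the other 4 times. Over all 388 names, 0%, 0.258%, 2.84%, 7.73%, 4.12% and 0.258% passed from 2 h to 5 d, so the share of star strands was at or below that of the chip at each time. At an unadjusted p under 0.05 there were 3, 5, 10, 12, 5 and 9 star strands from 2 h to 5 d. The share of all names at an unadjusted p under 0.05 was not counted, here or in the comparisons below. These counts thus do not show an excess of star strands. The F test over all 7 times passed 0 star strands in limma, with 2 at an unadjusted p under 0.05, against 2.32% of all names. The 6 comparisons share the 0 h arrays. Without the 4 hepatectomy arrays that had under 100 names above background, the counts past the adjusted threshold at 12, 24 and 48 h and 5 d were 4, 7, 1 and 3. The share of all names that passed without these arrays was not counted.

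The median over the 58 star strands lay slightly above 0 h at each time, and at each time but 24 h it turned negative under at least 1 other scaling or choice of arrays. Its log2 difference from 0 h was 0.04, 0.09, 0.08, 0.13, 0.13 and 0.06 from 2 h to 5 d, against 0.03, 0.04, 0.05, 0.07, 0.09 and 0.03 over all names. The medians of the guides lay below 0, at -0.06, -0.07, -0.13, -0.19, -0.10 and -0.09. Of the 54 guides, 7 passed the test as lower at 24 h and 4 at 48 h. Of all 388 names, guides included, 19 and 14 did so. From 2 h to 5 d, 9, 7, 13, 16, 6 and 7 star strands lay above 0 h with no overlap of the arrays, where 8.51%, 7.73%, 15.5%, 20.6%, 9.28% and 9.54% of all names did so. Below 0 h with no overlap lay 0, 2, 5, 1, 3 and 3 star strands, against 5.15%, 5.67%, 9.79%, 12.4%, 8.76% and 6.7% of all names. At 24 h this was 27.6% of the star strands above and 1.72% below.

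let-7i*, above background on more arrays than the other let-7 star strands, had the largest difference at 24 h. Its arrays read 8.48, 8.18 and 8.29 at 0 h, 9.07, 8.93 and 8.81 at 12 h, 9.64, 8.99 and 8.64 at 24 h, and 8.67, 8.16 and 9.18 at 48 h. The arrays of 12 and 24 h lay above those of 0 h, and those of 48 h overlapped with them. The log2 difference of 0.77 ± 0.31 at 24 h had a limma adjusted p of 0.105 and did not pass. miR-21*, the partner of the growth-associated miR-21, was 0.63 ± 0.24 above 0 h at 12 h with no overlap and an adjusted p of 0.131.

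Smaller differences that also failed the adjusted threshold were those of miR-101a*, at 0.40 at 12 h and 0.38 at 24 h with adjusted p of 0.0862 and 0.0707, and of miR-124*, at 0.39 at 48 h with 0.0835. miR-101a is known to repress the methyltransferase Ezh2 and miR-124 is a neuronal miRNA. miR-181a* was at 0.32 at 24 h with an adjusted p of 0.0756, miR-363* at 0.38 at 48 h with 0.101 and miR-708* at 0.34 at 5 d with 0.358. In these 5 the arrays of the 2 times did not overlap. miR-129*, from a brain miRNA, was 0.47 below 0 h at 6 h with an adjusted p of 0.572. miR-99a* was among the 3 smallest p at 2 h, but was above background on 0 arrays of either time, so no size is given.

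miR-296* and miR-34c* had the most negative differences. miR-296* was at 9.78, 9.85 and 8.70 at 0 h, and its arrays at the later times ran between 8.23 and 9.16. The mean lay 0.61 to 0.79 below that of 0 h at every later time, and the smallest adjusted p was 0.107, at 12 h. The third 0 h array lay among the later ones, so the groups overlapped at each time. Without that array the 12 h difference was -1.12 with a limma adjusted p of 0.0280. Over the 6 fits with 1 array left out it ran from -1.12 to -0.59, and in the other 5 it did not pass. miR-34c*, from a miRNA that p53 induces, was at 9.02, 8.0 and 9.02 at 0 h, 8.13, 7.90 and 8.10 at 2 h, and 8.0, 7.62 and 8.26 at 6 h. Its differences of -0.64 and -0.72 at 2 and 6 h had adjusted p of 0.442 and 0.490, and the second 0 h array lay among those of 2 and 6 h. Without it they were -0.98 and -1.06, with adjusted p of 0.0328 and 0.0206. Over the 6 fits with 1 array left out they ran from -0.98 to -0.46 and from -1.06 to -0.55. The other 5 fits did not pass at either time. For both star strands the fit that passed left out the 0 h array nearest the later ones, which by itself makes the difference larger.

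**Figure D2:**
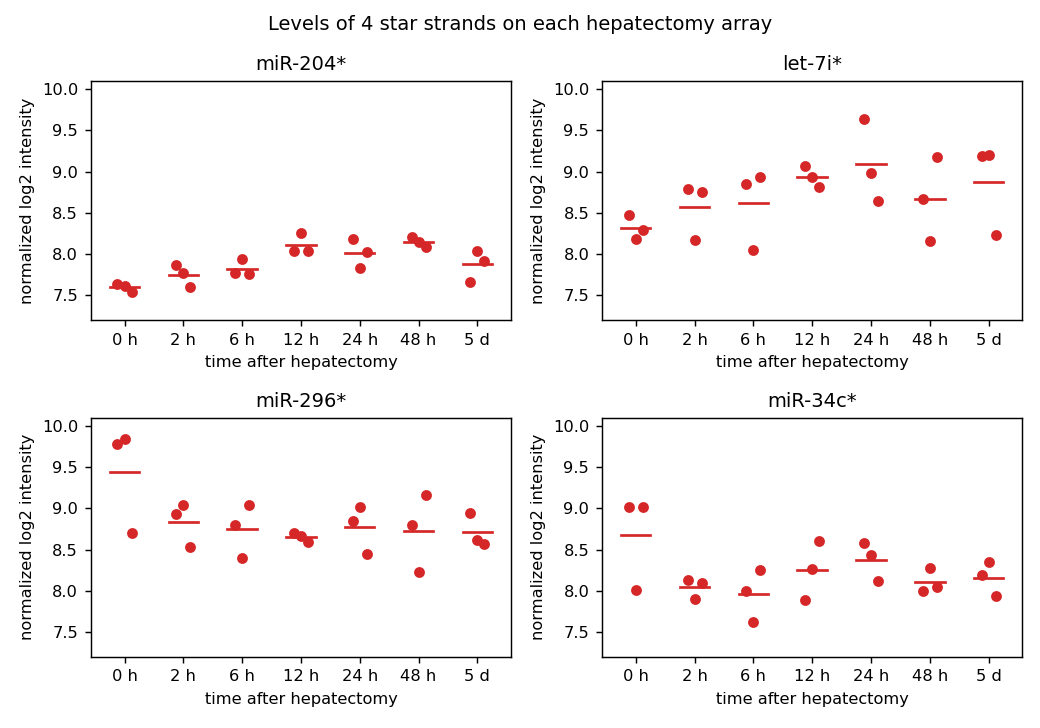
Normalized log2 intensity of miR-204*, let-7i*, miR-296* and miR-34c* on each hepatectomy array against time; points are arrays and lines are means of 3. miR-204* lies above its 0 h arrays from 6 h on, let-7i* does so at 12 and 24 h, and 1 of the 3 arrays at 0 h lies low for miR-296* and for miR-34c*.

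By origin of the guide, the 35 star strands of miRNAs broadly expressed in liver had 0 calls at every time and medians between 0.04 and 0.11. The 8 star strands of miR-7a, miR-9, miR-124, miR-129, miR-135a, miR-138, miR-204 and miR-218, known mainly outside the liver, had 1 call at 12 h, 0 at 24 h and 1 at 48 h, and medians between -0.03, at 5 d, and 0.30, at 24 h. The 6 star strands of the imprinted Dlk1-Dio3 cluster had 0 calls and medians between 0.04 and 0.12. The 9 star strands in none of these lists, which include miR-196a*, miR-296* and miR-330*, had 0 calls and medians between 0.04, at 2 h, and 0.29, at 24 h.

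None of the following star strands passed the test against 0 h at any time. miR-22* lay 0.06 to 0.50 below 0 h, miR-30e* 0.09 to 0.37 below and miR-378*, from the Ppargc1b locus, 0.06 to 0.34 below. Above 0 h at each time were miR-151*, by 0.01 to 0.20, miR-20a* of the growth-promoting miR-17-92 cluster, by 0.16 to 0.46, miR-322*, by 0.16 to 0.42, and miR-330*, by 0.004 to 0.38. The differences changed sign between times for miR-24-1*, from -0.06 to 0.29, miR-24-2*, from -0.30 to 0.07, miR-30a*, from -0.17 to 0.02, miR-125b*, from -0.06 to 0.26, and miR-140*, from -0.30 to 0.09. Those of miR-29a* did so too, but it was above background on 3 of 21 arrays and on 0 at 0 h, so no range is given.

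RefSeq placed 12 star strands in 5 groups with neighbours less than 10 kb apart. At 24 h, miR-106b* was at 0.44 and miR-25*, its neighbour in Mcm7, at 0.06. miR-27a* was at 0.16 and miR-24-2*, from the same cluster on chromosome 19, at -0.16. miR-99b* was at 0.24 and let-7e* at 0.19, and miR-29a* at -0.06 and miR-29b-1* at 0.10. In the group on chromosome 6, miR-379*, miR-323*, miR-543* and miR-376a* were at 0.24, 0.09, 0.07 and 0.03. None of these 12 passed the test, and no difference between neighbours was tested.

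The next comparison set the change of a star strand against the change of its own guide, so that a fixed offset between probes cancels. At 24 h, 8 of 57 star strands differed from their guides in their change from 0 h. Of all 86 strand pairs on the chip 11 (12.8%) did so, a share near that of the star pairs. In each of the 8 the change of the star strand was the more positive. They were let-7b*, let-7d*, let-7e*, let-7i*, miR-27a*, miR-99a*, miR-106b* and miR-126*. All 8 guides were lower at 24 h than at 0 h and 6 of the 8 passed their own test, whereas 0 of the 8 star strands did. let-7 miRNAs repress growth regulators such as Lin28 and Hmga2, the miR-99 family acts on Mtor, and miR-126 is the endothelial miRNA of the Egfl7 locus.

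Over all 86 strand pairs on the chip, which add 29 pairs named 5p and 3p, 12.8% passed at 24 h. The added pairs were taken as 5p minus 3p, so their sign has no star or guide meaning. Shares of all pairs by direction mix them with the star pairs. Of the star pairs, 8 were called higher and 0 lower. The arrays of 24 h and 0 h did not overlap in 20 star pairs that were higher (35.1%) and 0 that were lower, where 27.9% and 9.3% of all pairs did so. At 2, 6, 12 and 48 h and 5 d, 8, 2, 11, 11 and 2 star pairs were higher with no overlap, against 11.6%, 3.49%, 17.4%, 14% and 6.98% of all pairs. Lower with no overlap were 1, 0, 1, 1 and 1, against 5.81%, 2.33%, 8.14%, 5.81% and 6.98%. The median difference of changes at 24 h was 0.33 over the 57 star pairs, -0.08 over the 29 added pairs and 0.18 over all 86. In 29 star pairs the star strand was higher and the guide lower, in 13 both were lower, in 12 both were higher and in 3 the star strand was lower and the guide higher. At 2, 6, 12 and 48 h and 5 d, limma passed 0 star pairs, against 0%, 0%, 1.16%, 1.16% and 0% of all pairs. At an unadjusted p under 0.05 there were 6, 3, 11, 13 and 3 star pairs, and the share of all pairs there was not counted.

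let-7d* had the smallest adjusted p of the 8 in the reported fit. The strand difference on each array, relative to its 0 h mean, was 1.36, 1.56 and 1.69 at 24 h, against -0.11, 0.04 and 0.07 at 0 h. The groups did not overlap, and the difference of changes was 1.54 ± 0.28 with a limma adjusted p of 0.00169. The star strand itself was at 7.36, 7.49 and 7.59 at 24 h, against 7.41, 7.45 and 7.45 at 0 h, a difference of 0.04. It was above background on 1 of 3 arrays at both times, so its change, and with it the difference of changes, is not an exact value. Its guide let-7d averaged 8.03 ± 0.05 at 24 h and 9.53 ± 0.07 at 0 h (SD, n = 3 each), a difference of -1.49 with an adjusted p of 0.000581. let-7d* was also the one star pair past the threshold in limma's F test over all times, with an adjusted p of 0.0403, where 1.16% of pairs passed. That F call stayed under 6 of 12 alternative settings and in 8 of 21 fits with 1 array left out.

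In let-7i* the 2 strands differed from 0 h by similar sizes in opposite directions. The strand difference was 2.20, 1.41 and 0.89 at 24 h, against 0.50, 0.10 and -0.60 at 0 h, without overlap. The difference of changes was 1.5 ± 0.44 with a limma adjusted p of 0.0285. The star strand contributed 0.77 and the guide -0.73, and the guide passed its own test with an adjusted p of 0.0420. let-7i* was above background on all 3 arrays at both times and its guide on 1 array at 24 h and 2 at 0 h.

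For let-7e* the strand difference was 1.29, 1.42 and 1.18 at 24 h, against -0.11, 0.67 and -0.56 at 0 h. The difference of changes was 1.29 ± 0.31 with a limma adjusted p of 0.0112. Each strand was above background on 0 arrays of one time, the star strand at 0 h and the guide at 24 h, so neither change has an exact value. The guide was at least 2.02-fold lower at 24 h. For let-7b* the strand difference was 0.79, 0.97 and 1.35 at 24 h, against -0.38, 0.57 and -0.18 at 0 h, and the difference of changes was 1.04 ± 0.28 with an adjusted p of 0.0182.

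**Figure D3:**
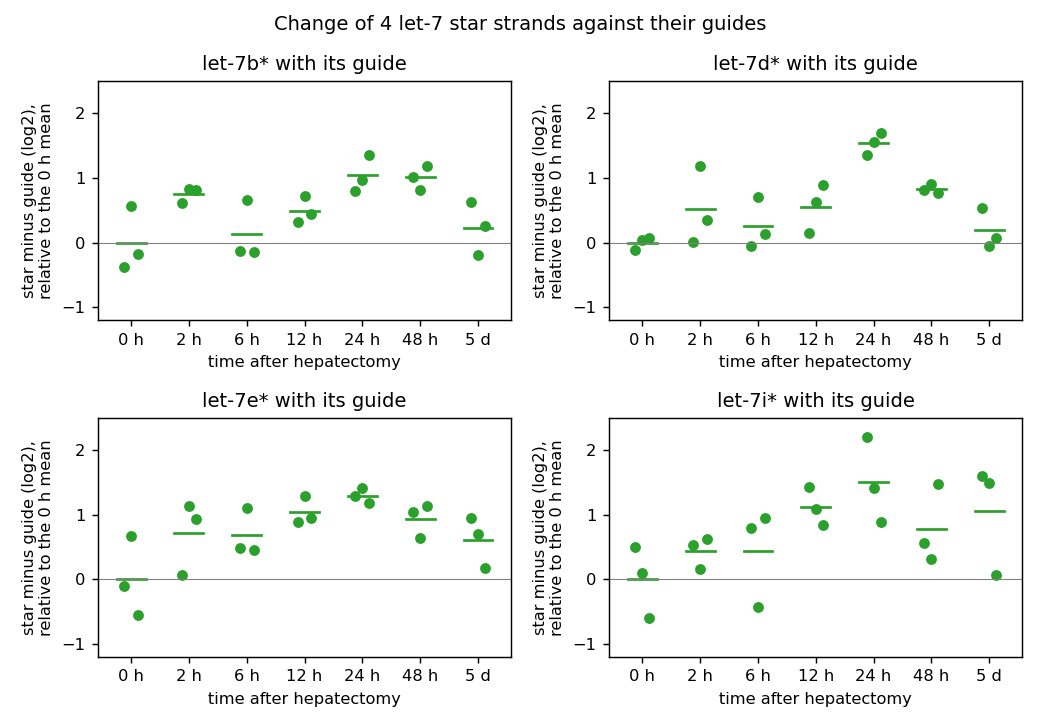
Log2 difference between star and guide on each array, relative to its 0 h mean, for let-7b*, let-7d*, let-7e* and let-7i* against time after hepatectomy; points are arrays and lines are means of 3. All 3 arrays at 24 h lie above all 3 at 0 h in each panel, and the 24 h arrays of let-7d* lie at 1.36 to 1.69.

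Outside the let-7 family, miR-126* had a strand difference of 1.21, 1.31 and 2.06 at 24 h, against 0.01, 0.39 and -0.40 at 0 h. The difference of changes was 1.53 ± 0.45 with a limma adjusted p of 0.0285, and the guide was at -1.52. miR-99a* was at 1.17, 0.92 and 1.12 at 24 h, against -0.02, 0.18 and -0.16 at 0 h. Its difference of changes was 1.07 ± 0.33 with an adjusted p of 0.0337, and the guide was at -1.01. In both, the guide passed its own test as lower. Both star strands were above background on 0 arrays at 0 h and 1 array at 24 h, so their own changes, and with them the differences of changes, have no exact value.

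miR-27a*, from a cluster with miR-23a and miR-24-2, was at 0.98, 1.13 and 0.83 at 24 h, against 0.08, 0.42 and -0.50 at 0 h. The difference of changes was 0.98 ± 0.31 with a limma adjusted p of 0.0437, and the guide's difference of -0.82 had an adjusted p of 0.0575. miR-106b*, whose guide promotes passage into S phase, was at 0.72, 0.72 and 0.55 at 24 h, against 0.12, 0.19 and -0.32 at 0 h. Its difference of changes was 0.66 ± 0.20 with an adjusted p of 0.0285. Here the star strand was at 0.44 and the guide at -0.23, and neither passed alone.

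Signal near background bears on these values. Of the 8 star strands, let-7b*, let-7d*, miR-99a* and miR-126* were above background on at most 1 of 3 arrays at both times, and only let-7i* was so on all 3 at both. A strand near background at 0 h has little room to read lower. In these 4 a fall like that of the guide could therefore not have been seen, and how far this set their differences was not tested. With the authors' background-subtracted medians, the difference of changes was 0.39 for let-7d*, with a limma adjusted p of 0.928, and 2 star pairs passed in place of 8. Without the arrays with under 100 names above background, 19 passed, and the share of all pairs that did so was not counted. The let-7d* result at 24 h held when any one of its 6 arrays was left out. It was the one star pair to pass without the second 24 h array and without the third 0 h array. Without that 0 h array the differences of the other 7 ran from 0.51, for miR-106b*, to 1.30, for miR-126*, with adjusted p from 0.0794 to 0.219. Without the first array of 0 h, the first of 24 h or the last of 24 h, 3, 4 and 3 star pairs passed, and without the second array of 0 h 8 did.

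**Figure D4:**
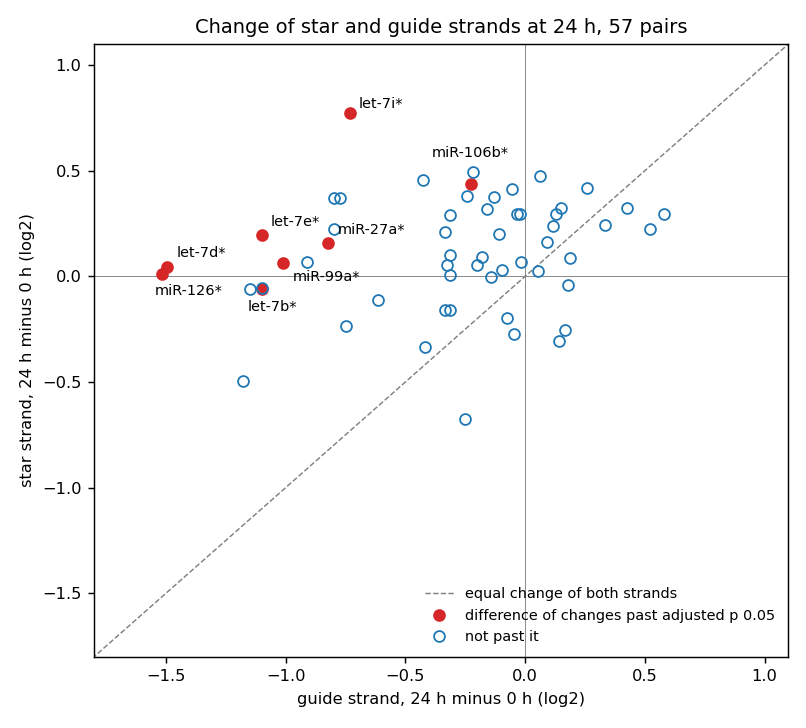
Log2 difference between 24 h and 0 h of the guide (horizontal) and of the star strand (vertical) for 57 pairs; filled red points are the 8 pairs whose difference of changes passed an adjusted p of 0.05, open blue points are the others, and the dashed line marks equal change. The 8 red points lie left of 0, with guides between -0.23 and -1.52, and 6 of them have star strands within 0.2 of 0.

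Hepatectomy was compared with sham laparotomy at the same times over the names that both tables share, to set regrowth against surgery alone. Operation and chip layout are the same split of the arrays and cannot be told apart in these values. At 24 h, 3 of 53 star strands passed: let-7i* and miR-196a* were higher after hepatectomy and miR-28* was lower. limma passed 11.4% of all shared names at 24 h, 1.06% at 12 h and 2.39% at 48 h. At 12 and 48 h it passed 0 star strands, with 12 and 7 at an unadjusted p under 0.05, where the share of all shared names was not counted. Without the arrays with under 100 names above background the counts at 12, 24 and 48 h were 2, 7 and 7, again without a share of all shared names.

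let-7i* was at 9.86, 9.71 and 9.59 in hepatectomy livers at 24 h, against 8.85, 8.05 and 8.47 in sham livers, on the joint normalized log2 scale. The groups did not overlap, and the log2 difference was 1.27 ± 0.22, a fold of 2.41, with a limma adjusted p of 0.000677. At 12 and 48 h the differences were 0.66 and 0.38, with adjusted p of 0.0862 and 0.443. The size at 24 h depended on the scaling, being 0.24 with an adjusted p of 0.687 under median centring and 0.31 with 0.532 under 75th percentile centring. The guide let-7i lay the other way, at -0.68 at 24 h with an adjusted p of 0.0251, and was above background on 1 hepatectomy and 2 sham arrays.

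miR-28*, from the Lpp locus, was at 7.54, 7.2 and 7.45 in hepatectomy livers at 24 h, against 8.06, 8.05 and 7.89 in sham livers. The difference was -0.60 ± 0.16 with a limma adjusted p of 0.0119, and it was -0.56 at 12 h with 0.0809 and -0.17 at 48 h with 0.694. Its guide miR-28 was also lower at 24 h, by -0.76 with an adjusted p of 0.00282. Without the second hepatectomy array of 24 h, the difference for miR-28* was -0.51 with an adjusted p of 0.0697, and without the second sham array it was -0.57 with 0.0523.

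miR-196a*, the partner of a miRNA from the Hox clusters, was at 8.70, 8.73 and 8.45 in hepatectomy livers at 24 h, against 8.18, 7.93 and 7.94 in sham livers. The difference was 0.61 ± 0.18 with a limma adjusted p of 0.0263, and under median centring it was 0.41 with an adjusted p of 0.273. It was also lost without the first or second hepatectomy array or the second or the third sham array of 24 h, at 0.55 to 0.57 with adjusted p of 0.0813 to 0.118. Its guide miR-196a was above background on 0 of 3 arrays of both groups at 24 h.

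miR-204* was at 7.88, 8.18 and 7.92 in hepatectomy livers at 12 h, against 7.65, 7.25 and 7.73 in sham livers, a difference of 0.45 with a limma adjusted p of 0.0819. At 48 h it was at 8.17, 8.18 and 7.95, against 7.76, 7.57 and 7.73 in sham livers, a difference of 0.41 with an adjusted p of 0.0788. The groups overlapped at neither time. At 48 h miR-204* was not well above background on any sham array, and was at least 1.27-fold higher after hepatectomy. At 24 h the groups overlapped and the difference was -0.01. miR-330* was 1.11 higher in hepatectomy livers at 48 h with an adjusted p of 0.0788. miR-543* had the same adjusted p, but was above background on 1 hepatectomy and 0 sham arrays at 48 h, so no size is given.

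Over the 3 times together, limma's F test passed 9 of 53 star strands, against 16.5% of all shared names, with 15 at an unadjusted p under 0.05. They were let-7i*, miR-28*, miR-196a* and miR-204*, with adjusted p of 0.000489, 0.00293, 0.0074 and 0.00972, and miR-330*, miR-136*, miR-30a*, miR-379* and miR-99b*, with adjusted p of 0.0143, 0.0236, 0.0311, 0.0432 and 0.0466. Apart from let-7i*, miR-28* and miR-196a*, none of them passed against sham at a single time. The authors' background-subtracted medians passed 1 star strand in this test, median centring 5, with let-7i* and miR-330* not among them, and no normalization between arrays 23.

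miR-330* was at 9.86, 9.01 and 9.99 in hepatectomy livers at 48 h, against 8.82, 8.24 and 8.47 in sham livers, without overlap. miR-136*, from the Dlk1-Dio3 cluster, was at 7.71, 8.31 and 7.62 in hepatectomy livers at 12 h, against 7.33, 7.41 and 7.26 in sham livers. At 24 h it was at 7.83, 7.64 and 8.25, against 7.33, 7.47 and 7.31 in sham livers. The groups overlapped at neither time. miR-136* was above background on all 3 hepatectomy arrays and 0 sham arrays of both times, and was at least 1.07-fold higher after hepatectomy at 12 h and at least 1.35-fold higher at 24 h. miR-379*, from the same cluster, was at 7.81, 7.79 and 7.96 in hepatectomy livers at 12 h, against 7.26, 7.59 and 7.40 in sham livers. It was again above background on 3 and 0 arrays and at least 1.05-fold higher. miR-99b*, the neighbour of let-7e*, was at 7.61, 7.81 and 7.98 in hepatectomy livers at 12 h, against 7.21, 7.32 and 7.5 in sham livers, a bound of at least 1.01-fold higher. These bounds compare means and allow for no error. The median standard error in this fit was 0.166 log2, so the bounds near 1-fold do not show a change. miR-30a*, the partner of a guide abundant in many tissues, was at 7.29, 7.12 and 7.58 in hepatectomy livers at 48 h, against 7.82, 7.77 and 7.86 in sham livers. Its differences at 12 and 24 h were -0.25 and -0.31, and that at 48 h was -0.49 with a limma adjusted p of 0.0809, and it was above background on 1 of 3 arrays of both groups.

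**Figure D5:**
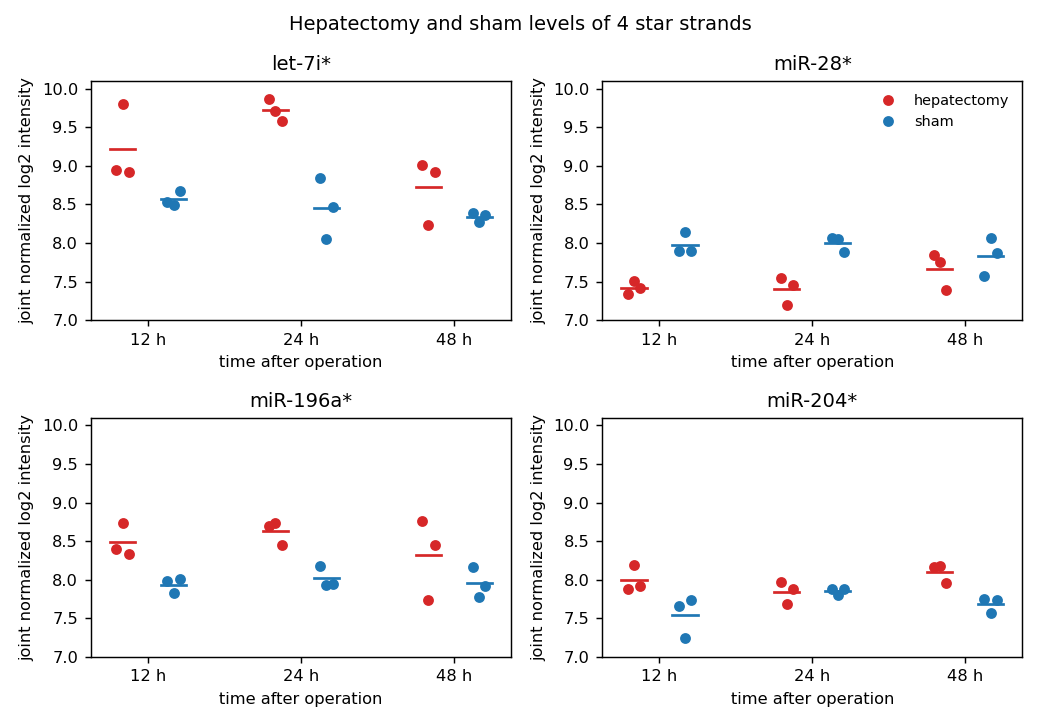
Joint normalized log2 intensity of let-7i*, miR-28*, miR-196a* and miR-204* at 12, 24 and 48 h after hepatectomy (red, left of each pair) and sham laparotomy (blue, right); points are arrays and lines are means of 3. At 24 h the groups do not overlap for let-7i*, miR-28* and miR-196a*, and they do for miR-204*.

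A constant offset between the chips cancels when the change between times is compared between operations. limma passed 0 of 53 star strands, and 0% of the shared names, for the changes 24 minus 12 h, 48 minus 24 h and 48 minus 12 h, with 1, 2 and 2 star strands at an unadjusted p under 0.05. The smallest were those of let-7i*, at -0.89 for 48 minus 24 h with an adjusted p of 0.926, of miR-204*, at -0.46 for 24 minus 12 h with 0.753, and of miR-101a*, at -0.45 for 48 minus 12 h with 0.975.

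After sham laparotomy alone, limma passed 0 of 53 star strands and 0% of 680 names between any 2 times, with 4, 2 and 3 star strands at an unadjusted p under 0.05 for 24 minus 12 h, 48 minus 24 h and 48 minus 12 h. The F test passed 0, with 3 at an unadjusted p under 0.05. miR-322*, whose hairpin lies on the X chromosome, had the smallest p, at 0.47 ± 0.10 for 24 minus 12 h with an adjusted p of 0.249. miR-29a* had an adjusted p of 0.310 for the same change, but was above background on 0 sham arrays of either time, so no size is given.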

How the data were processed

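Raw spot intensity per array was deposited by the authors on a linear scale, in 1 table of 21 hepatectomy arrays (15 spots per name) and 1 of 9 sham arrays (22 spots). Background-subtracted intensity was deposited as medians, and equalled the raw median minus 1 constant per array. The replicate letters of 4 arrays differ between these tables within a group, and the raw table's letters were used. The sources do not name the image software. A deposited processed table without star strands was not used.

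With limma 3.58.1 in R 4.3.3, intensities were corrected by normexp (offset 50), log2 transformed, quantile normalized and averaged over spots. In the joint fit, spots were averaged first. Fits (lmFit, eBayes) used all names and all groups, with Benjamini-Hochberg adjustment over all names or strand pairs of a fit, a threshold of 0.05 and two-sided p. All adjusted p values are limma's. The number of arrays limits precision, the median standard error being 0.192 between hepatectomy times.

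Star strands were named if they passed a test, had the 3 smallest p of a hepatectomy contrast or F test (2 in joint contrasts and the sham F test), the 3 smallest of the paired F test, were among the 10 above background most often, or were in a fixed set of 17, of which 16 were on the chip. The F test over the 3 times of hepatectomy against sham was added after the data were seen. Examples at either end of the background counts and in the genome groups were chosen after their values were seen. Members, lists and the rule were chosen with earlier results of these data known. Alternatives were other normalizations, background corrections, spot medians, a dim filter, array weights, brightness and replicate blocks, fewer groups or arrays. In simulated data with log2 changes of 1.5, 95% were recovered in the hepatectomy fit at 24 h (388 names) and 90% in the paired fit (86 pairs). Recovery of smaller changes was not tested. The star strands' log2 differences from 0 h lay between -0.79, for miR-296* at 12 h, and 0.77, for let-7i* at 24 h.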

Additional observations from a re-analysis of the deposited data

How the results depend on the processing

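Numbers below are counts of star strands past the threshold in limma unless said otherwise, and the cause of a change with the setting was not tested. The share of all names past the threshold was not counted under these alternatives, so the counts have no rate to be set against. No named star strand that passed in the reported fit or in an alternative had the opposite sign in the other. For the differences from 0 h, median centring, 75th percentile centring and no normalization between arrays each gave 0 at 12 h and 0 at 48 h, against 1 and 1 as reported. No background correction gave 0 at 12 h and 2 at 48 h. The authors' background-subtracted medians gave 1 at 2 h and 0 at 12 and 48 h, and the median of spots gave 0 at 12 h, 1 at 24 h and 0 at 48 h. Array weights gave 1, 1, 8, 8, 2 and 7 from 2 h to 5 d and 4 in the F test, against 0, 0, 1, 0, 1, 0 and 0. The brightness class as a block and the bright arrays alone each gave 1 at 24 h. A fit of the compared groups only gave 3 at 12 h, 1 at 24 h and 0 at 48 h. Leaving out 1 array at a time gave 0 to 1 at 2, 6, 12 and 24 h and 0 to 2 at 48 h.

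For the star strand against its guide, both centrings and no normalization gave 3 each at 24 h and 0 in the F test, against 8 and 1. No background correction gave 1 at 48 h. The authors' medians gave 2 at 12 h and 2 at 24 h, and the median of spots gave 1 at 12 h, 4 at 48 h and 0 in the F test. Leaving out dim names gave 2 at 48 h. Array weights gave 2, 5, 17, 11 and 2 at 2, 12, 24 and 48 h and 5 d, and 16 in the F test. The brightness block gave 11 at 48 h, 1 at 5 d and 2 in the F test. The bright arrays alone gave 1 at 24 h, 1 at 5 d and 0 in the F test, and the compared groups only gave 13 at 24 h and 4 at 48 h. Leaving out 1 array at a time gave 0 to 1 at 12 h, 1 to 8 at 24 h, 0 to 5 at 48 h and 0 to 3 in the F test. The highest count at 48 h, 5, came without the second 0 h array.

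For hepatectomy against sham, no normalization gave 24 at 12 h and 0 at 24 h, against 0 and 3. Median centring gave 1 at 24 h, the authors' medians 0 and the median of spots 1, and no background correction gave 1 at 48 h. Array weights gave 3, 15 and 3 at 12, 24 and 48 h. Leaving out 1 array at a time gave 0 to 1 at 12 h, 1 to 4 at 24 h and 0 to 3 at 48 h, with 1 at 24 h without the second sham array, 4 at 24 h without the third hepatectomy array and 3 at 48 h without the second hepatectomy array. In the F test over the 3 times, against 9, both centrings gave 5 each, no normalization 23, the authors' medians 1, the median of spots 3, array weights 17 and the arrays with 100 or more names above background 15. Leaving out 1 array at a time gave 5 to 13 there, the 5 without the third sham array of 24 h. The changes between times and the sham times kept 0 under each alternative run.

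Leaving out the 5 arrays with under 100 names above background, 4 of hepatectomy and 1 of sham, was chosen after seeing the data. It gave 4, 7 and 3 at 12 h, 24 h and 5 d and 1 in the F test for the differences from 0 h. For the star strand against its guide it gave 6, 19, 13 and 3 at 12 h, 24 h, 48 h and 5 d and 13 in the F test. For hepatectomy against sham it gave 2, 7 and 7 at 12, 24 and 48 h.

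Some log2 values that did not pass changed sign. With no normalization between arrays, miR-28* against sham was at 0.26 at 12 h, against -0.56, and miR-29a* in sham livers at 0.028 and 0.0071, against -0.25 and -0.17, for 24 and 48 minus 12 h. There too, the change of hepatectomy minus sham was at -0.019 for miR-330* at 48 minus 12 h, against 1.01, and for let-7i* at 0.12 at 48 minus 24 h, against -0.89. The change of hepatectomy minus sham for let-7i* at 24 minus 12 h was 0.61. It became -0.67 with no normalization, -0.048 when arrays were centred on the 75th percentile and -0.30 when they were centred on the median. let-7i* against its guide at 5 d was at -0.26 on the bright arrays alone, against 1.05. Medians over star strands near 0 also changed sign.

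Replicate numbers were not used to pair the arrays in the reported fits. Deviations of same-numbered arrays correlated with a median r of 0.15 over 63 pairs, 32 of them over 0.1. Between differently numbered arrays the median r was -0.13, so same-numbered arrays were somewhat more alike. Still, 7 of 21 arrays correlated best with their own number. With the replicate block, the counts were 0 at 12 h for the differences from 0 h and 2 at 48 h for the star strand against its guide. The limma adjusted p of miR-204* at 12 h was then 0.0567.

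Signal near background and 3 arrays a group limit these values. The median star strand was above background on 12 of 21 hepatectomy arrays and 1 of 9 sham arrays. For names without a star the medians were 13.5 and 2.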
